A study of Mus musculus with 6 samples.

Results

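The 10 genes described here are carboxylesterases of the mouse liver, chosen by name with earlier results of these data known: Ces1b, Ces1c, Ces1d, Ces1e, Ces1f, Ces1g, Ces2a, Ces2c, Ces3a and Ces3b. They are 10 of the 17 carboxylesterase genes listed in at least 1 library, and all 10 had counts in each library. RNA was sequenced from livers of male C57BL/6 mice, labelled 6 to 8 weeks of age, in 6 libraries with 1 library per condition. In the diet model the libraries were SD (a standard diet, labelled as a chow control), HFD (a high-fat diet, labelled NASH, a fatty liver with inflammation) and HFD plus JT003. In the other model they were corn oil (the injection vehicle), CCl4 (carbon tetrachloride, a hepatotoxin, labelled liver fibrosis) and CCl4 plus JT003. JT003 is a peptide agonist of both adiponectin receptors, AdipoR1 and AdipoR2. The study's methods describe 16 weeks of high-fat diet with 4 weeks of JT003, and CCl4 every 3 days for 6 weeks with JT003 for 3 weeks. The diet lasted longer than the labelled age, so in that model the label cannot be the age at collection. The age at collection was not stated for either model. A second diet model with a methionine- and choline-deficient diet is also described there, and the labels do not say which of them the HFD libraries came from. Whether a library holds 1 liver or a pool was not stated.

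Carboxylesterases are serine hydrolases that split ester and amide bonds. In hepatocytes most of them sit in the lumen of the endoplasmic reticulum, where they cleave ester drugs and stored lipids. Some hydrolyse triacylglycerol, and the released fatty acids can be used to build very-low-density lipoprotein. In the mouse the genes lie in clusters of near copies, so that similar names mark similar sequences.

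The ends of the coding sequences are shown first, because they separate members that carry an endoplasmic reticulum retrieval signal from those that do not. The sequences were taken from the GENCODE vM21 transcripts of the GRCm38 build. Each line gives the last 30 coding bases before the stop codon, 5′ to 3′, with the last 4 codons in capitals.
Ces1b: acagaccctactgagcacAGAGAACACAAA
Ces1c: acagaccctactgaacacACAGAACACAAA
Ces1d: aggccatcccacagggaaCATGTTGAGCTC
Ces1e: aagcaactgccgacagaaCACACTGAGCTG
Ces1f: aaacaaccccagccatacCACAATGAGCTG
Ces1g: aggtcatcccatagggaaCATGTTGAACTG
Ces2a: aagggttctcaggacaagCATGCAGAGCTG
Ces2c: aaggcttctcaggacaagCACAGGGAGCTT
Ces3a: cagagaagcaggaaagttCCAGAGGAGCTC
Ces3b: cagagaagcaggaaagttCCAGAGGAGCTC

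In 6 of the 10 genes (Ces1d, Ces1e, Ces1f, Ces1g, Ces2a and Ces2c) these codons read as a histidine codon, any codon, a glutamate codon and a leucine codon, the retrieval signal known from luminal esterases. Ces1b and Ces1c ended otherwise. Ces1c encodes an esterase that is secreted and found in mouse plasma. Ces3a and Ces3b shared the same final 30 bases, which end in the glutamate and leucine codons without the histidine codon.

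The stretch around the catalytic serine shows how close the copies are. It is given for the members called in the 4 main comparisons and for Ces3a, the near copy of Ces3b. Capitals mark the 6 codons of the nucleophile motif, in which the codon after the variable second position encodes the serine and glycine codons stand at both ends.
Ces1d: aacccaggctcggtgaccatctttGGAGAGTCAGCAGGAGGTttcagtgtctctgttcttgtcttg
Ces1g: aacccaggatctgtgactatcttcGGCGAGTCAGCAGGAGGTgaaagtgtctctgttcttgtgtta
Ces3a: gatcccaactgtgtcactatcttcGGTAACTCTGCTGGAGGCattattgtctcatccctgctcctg
Ces3b: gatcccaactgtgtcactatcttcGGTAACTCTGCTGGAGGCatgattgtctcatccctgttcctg

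Over these 66 bases Ces1d and Ces1g had 10 mismatches, Ces3a and Ces3b had 2, and Ces1g and Ces3b had 27. The second codon of the motif was gag, for glutamate, in 6 of the 10 members, aac in Ces3a and Ces3b, gtc in Ces2a and tca in Ces1b. Over the whole coding sequence Ces3a and Ces3b were 95.3% identical, Ces1b and Ces1c 90.9%, Ces2a and Ces2c 83.0%, and Ces1d and Ces1g 81.6%. Windows of 50 bases that also occur in another gene made up 42.2% of the Ces2c transcript, 30.9% of Ces3a, 26.1% of Ces3b, 22.2% of Ces2a, 17.0% of Ces1c and 11.6% of Ces1b. For Ces1d, Ces1e, Ces1f and Ces1g the share was between 1.28% and 3.21%. The deposited counts are estimates that can split a read among genes. Between 69.9% and 70.9% of all genes listed in a library had a whole count (within 0.005). None of the members did, apart from Ces2a in 1 library. The listed genes were not matched to the members by count, so this contrast does not show that splitting is particular to the members. Values of Ces2a, Ces2c, Ces3a and Ces3b, and of Ces1b and Ces1c, are therefore less certain than those of the other members.

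Total counts were between 19374236 and 20184557 per library. Albumin, the defining hepatocyte product, was between 25391 and 36570 FPKM (fragments scaled by transcript length and library depth). In bulk tissue, fewer cells of a type and less RNA per cell cannot be told apart. No replicate error can be given: the intervals below cover counting error alone, each test compares 2 libraries and not 2 conditions, and a gene is named called where the adjusted p of an exact binomial test was under 0.001 and the log2 ratio of scaled counts was at least 1 in size. In edgeR's exact test called at an adjusted p under 0.05 and the same ratio, none of the 11 calls of members below held when a biological coefficient of variation of 0.4 was assumed, and 5 of them were also lost at 0.2: Ces3b in CCl4 to CCl4 plus JT003, Ces2c in SD to HFD plus JT003, Ces1g in corn oil to CCl4 plus JT003, and both calls between SD and corn oil. At 0.2 Ces1g in SD to HFD (adjusted p = 0.0252), Ces1g in corn oil to CCl4 (adjusted p = 0.00816) and Ces1d in HFD to HFD plus JT003 (adjusted p = 0.00129) also missed the stricter 0.001 of the binomial test.

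Levels spanned a wide range. Ces1c, the plasma esterase, was the highest member in 5 of the 6 libraries, with 889, 838 and 1164 FPKM in the SD, HFD and HFD plus JT003 libraries and 891, 1298 and 1314 FPKM in the corn oil, CCl4 and CCl4 plus JT003 libraries. Ces3a had 799, 989, 1072, 866, 596 and 696 FPKM in the same order, above Ces1c in HFD and next to it in the other libraries. The lowest member was Ces2c, which hydrolyses acylglycerols, with 11.2, 21.3, 27.2, 15.5, 18.9 and 12.7 FPKM. Ces1b, a near copy of Ces1c, had 18.5, 26.7 and 40.3 FPKM in the diet libraries and 36.2, 66.1 and 86.1 FPKM in the CCl4 model. Ces1f had between 133 FPKM in SD and 254 in HFD plus JT003, and Ces2a between 54.5 in HFD and 177 in corn oil. Ces1b was thus lowest in the control of each model and highest after JT003. Together the 10 genes summed to 2231, 2515, 3500, 2583, 2857 and 3019 FPKM, again in that order. FPKM lack the library scaling used for the ratios, whose factors were 0.88, 1.04 and 1.09 in corn oil, CCl4 and CCl4 plus JT003. Sums in the CCl4 model can thus differ in direction from the scaled ratios. On that scale the median of the members was -0.08 from corn oil to CCl4 and -0.30 from corn oil to CCl4 plus JT003. Among all genes with at least 100 counts in a library, the median range over the 6 libraries was 0.71 on the log2(FPKM + 1) scale. The median range of the members was 1.44, and 8 of the 10 lay above the median of all genes. The added 1 narrows the range of genes with low FPKM, and the genes were not matched to the members by level. The members were also chosen with earlier results of these data known, so this is a description only.

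**Figure D1:**
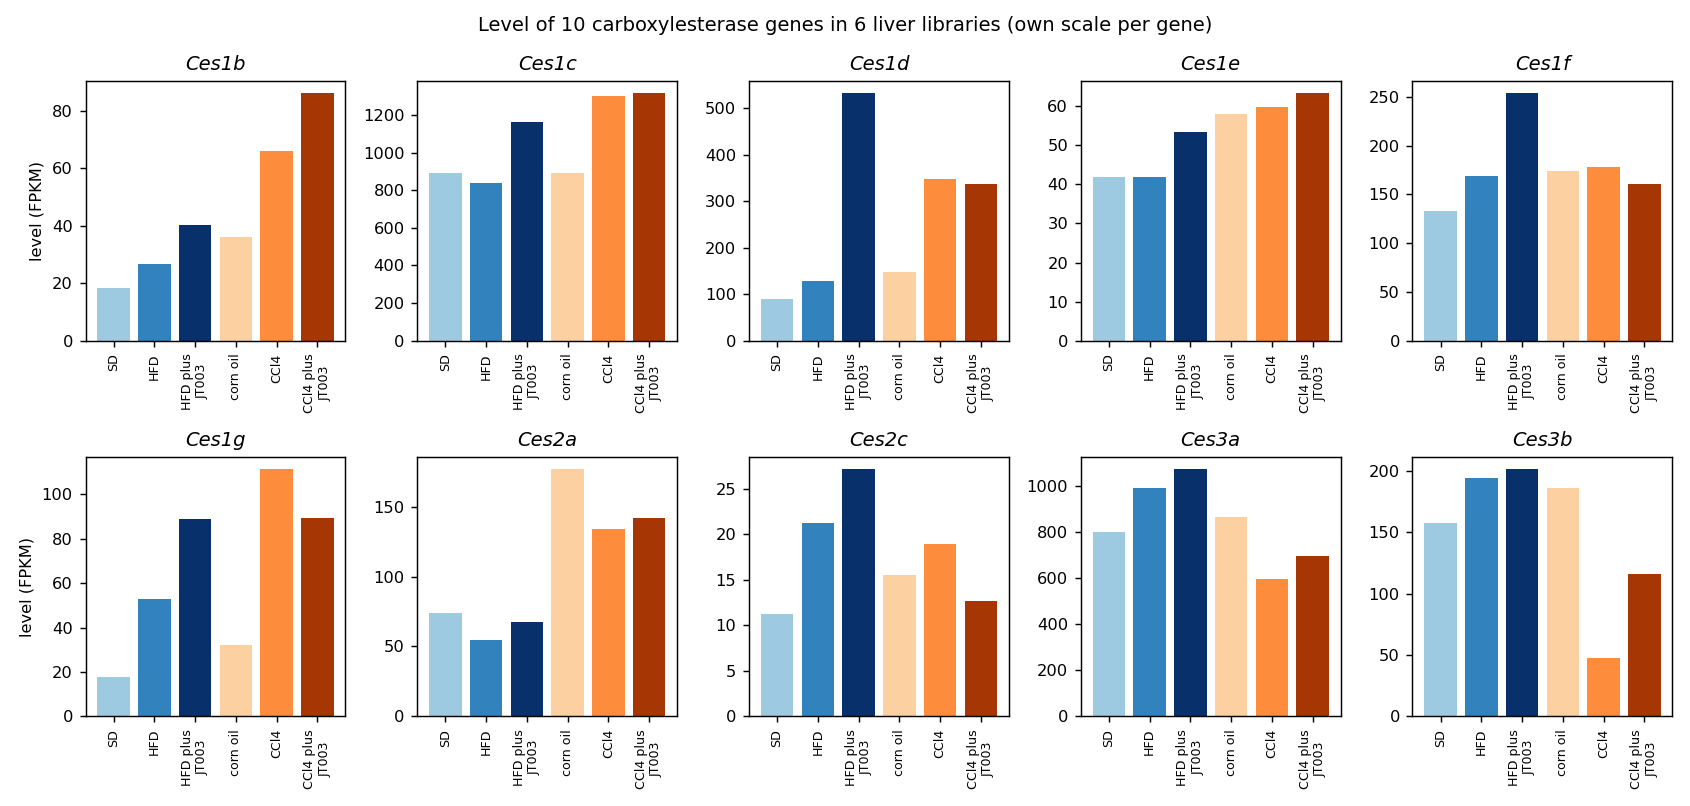
Level of each member (y axis, FPKM, scale set per gene and starting at 0) in the 6 libraries (x axis; 1 bar is 1 library, so there is no error bar). Ces1d stands highest in HFD plus JT003 at 532 FPKM, and Ces3b stands lowest in CCl4 at 47.6 FPKM.

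The comparison of SD with HFD asked what differed in the liver under the high-fat diet. Ces1g, a hydrolase whose loss raises liver triacylglycerol in mice, was the member called. Its level was 17.5 FPKM in SD and 52.8 FPKM in HFD, a log2 ratio of 1.46 (95% interval 1.35 to 1.58), or 2.76-fold. It was 1 of 10 members called, against 5.38% of all 16973 genes tested, with 2.92% of all genes higher and 2.46% lower. With total reads as the scale 624 were higher and 329 lower, against 495 and 418. Ces2c was 1.74-fold higher with a log2 ratio of 0.80, under the threshold. Ces2a, which cleaves ester drugs and acylglycerols, had 73.6 FPKM in SD and 54.5 in HFD, a log2 ratio of -0.55. The other members lay between -0.21 for Ces1c and 0.41 for Ces1b. The median of the members was 0.20, beside -0.0004 for all genes tested. Stellate cell markers moved with Ces1g, with 4 of 10 called higher and sums of 77.6 and 128 FPKM. Other lists moved too. Of 12 pericentral markers 2 were called higher and 4 lower (sums 4926 and 6308 FPKM). Of 11 periportal markers 1 was called higher and 1 lower (5036 and 3548 FPKM). Of 5 adipocyte markers tested 2 were called higher (21.0 and 55.8 FPKM), and of 8 endothelial markers 1. Of 11 hepatocyte markers 1 was called lower, and none of 11 macrophage markers was called. The part of these cells in the value of Ces1g was not tested.

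The comparison of HFD with HFD plus JT003 asked what differed after the agonist. Ces1d, known as triacylglycerol hydrolase, which mobilises stored fat for lipoprotein assembly, was the member called. It had 127 FPKM in HFD and 532 FPKM in HFD plus JT003, a log2 ratio of 2.05 (95% interval 2.002 to 2.092), or 4.13-fold. In SD it had 89.2 FPKM, so the treated library was the highest of the 3. This was 1 of 10 members, against 1.63% of all 17090 genes tested, with 0.743% of all genes higher and 0.884% lower. All 10 members had a ratio above 0, from 0.04 for Ces3b, whose interval spans 0, to Ces1d. Ces1g followed Ces1d with 89.0 FPKM after JT003 and a log2 ratio of 0.74, then Ces1b with 0.58 and Ces1f with 0.57. Ces1f, a lipid-droplet-associated esterase, had 169 FPKM in HFD and 254 in HFD plus JT003. The median of the members was 0.40, beside -0.01 for all genes.

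Some Ces1 genes are also transcribed in fat. Among 7 adipocyte markers, of which 6 were listed, adiponectin (Adipoq) had 0 counts in the 3 diet libraries. The summed level of the list was 21.0 FPKM in SD, 55.8 in HFD and 18.3 after the agonist, carried by Fabp4, Cfd and Cidea. Cfd had 0.11, 25.4 and 9.21 FPKM in the same order, and Cidea had 0.17, 17.0 and 0.79 FPKM. These 2 markers were called lower between HFD and HFD plus JT003, with log2 ratios of -1.46 for Cfd and -4.30 for Cidea. Stellate cell markers moved between HFD and HFD plus JT003, with 3 of 10 called lower, namely Col1a1 (-1.41), Col3a1 (-1.32) and Col1a2 (-1.07), and sums of 128 and 114 FPKM. Of the bile duct markers Krt19 was called higher (2.17), and of the periportal markers Sds was called lower (-1.01). The part of these cells in the value of Ces1d was not tested. Of 11 hepatocyte markers, none was called between HFD and HFD plus JT003, and their sum was 53369 and 57671 FPKM.

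**Figure D2:**
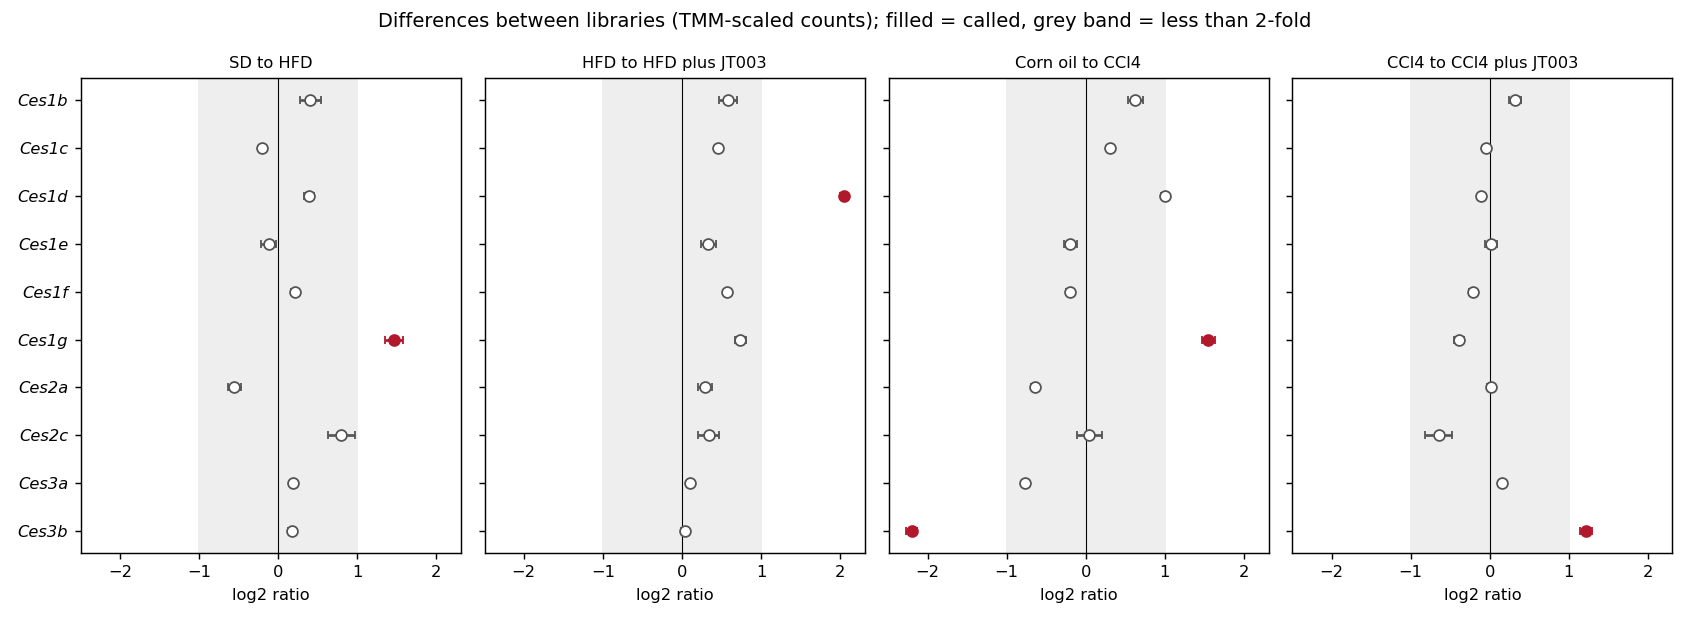
Log2 ratio of TMM-scaled counts (x axis) for each member (y axis) in the 4 main comparisons, with 95% intervals of counting error as bars. Filled points mark called members: Ces1g and Ces1d in the diet model, Ces1g and Ces3b in the CCl4 model.

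The comparison of corn oil with CCl4 asked what differed in the injured liver. Ces3b was lower and Ces1g was higher. Ces3b had 186 FPKM in corn oil and 47.6 FPKM in CCl4, a log2 ratio of -2.20 (95% interval -2.28 to -2.13), or 4.60-fold lower. Ces1g had 32.2 FPKM in corn oil and 111 FPKM in CCl4, a log2 ratio of 1.55 (95% interval 1.47 to 1.64), or 2.93-fold higher. These were 2 of 10 members, against 7.18% of all 17234 genes tested, with 4.76% of all genes higher and 2.41% lower. With total reads 1224 were higher and 271 lower, against 821 and 416. Ces1d lay just under the threshold, with 147 FPKM in corn oil, 347 FPKM in CCl4 and a log2 ratio of 0.998. It was past the threshold when libraries were scaled by total reads (1.23). Ces3a, the near copy of Ces3b, had 866 and 596 FPKM and a log2 ratio of -0.78. Ces2a had a ratio of -0.64 and Ces1b of 0.63, and the median of the members was -0.08, beside 0.0046 for all genes.

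Many markers of pericentral hepatocytes, the zone that CCl4 damages, were lower, as Ces3b was. Of 12 such markers 7 were called lower and none higher, and their summed level was 5892 FPKM in corn oil and 1659 in CCl4. Glul, glutamine synthetase, had 268 and 34.2 FPKM (log2 ratio -3.21), and Cyp2e1, which activates CCl4, had 4420 and 1103 FPKM (-2.24). Cyp2e1 thus made up most of the sum in both libraries. Cyp1a2 (log2 ratio 0.59), Axin2 (0.66) and Gulo (0.08) went the other way and were not called. Of 11 periportal markers 1 was called higher and 1 lower, with sums of 6373 and 6022 FPKM, and none of the hepatocyte markers was called. Macrophage markers summed to 62.4 FPKM in corn oil and 201 in CCl4, with 8 of 11 called higher. Bile duct markers had 4 of 7 called higher and stellate cell markers 3 of 10, namely Col1a1 (3.13), Col3a1 (2.63) and Col1a2 (2.37). The stellate cell markers Acta2 (-0.89), Dcn (-0.65) and Lrat (-0.21) went the other way and were not called. Of 8 endothelial markers 2 were called lower, with sums of 51.3 and 32.5 FPKM. Of 6 adipocyte markers 2 were called lower and none higher, with sums of 27.5 FPKM in corn oil and 7.31 in CCl4. The 2 were Cfd (9.91 and 0.11 FPKM) and Fabp4 (16.1 and 6.94 FPKM), and Adipoq had 0.46 and 0.04 FPKM. The part of these cells in the values of Ces3b and Ces1g was not tested.

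The 250 bases upstream of the transcription start are shown for Ces1g and Ces3b, because these were called in opposite directions with CCl4. They are the RefSeq promoters of the GRCm38.p6 build, written 5′ to 3′ on the gene's strand, chr8:93337210-93337459 on the minus strand for Ces1g and chr8:105083505-105083754 on the plus strand for Ces3b. Capitals mark TATAAA and CCAAT, searched on both strands.
Ces1g: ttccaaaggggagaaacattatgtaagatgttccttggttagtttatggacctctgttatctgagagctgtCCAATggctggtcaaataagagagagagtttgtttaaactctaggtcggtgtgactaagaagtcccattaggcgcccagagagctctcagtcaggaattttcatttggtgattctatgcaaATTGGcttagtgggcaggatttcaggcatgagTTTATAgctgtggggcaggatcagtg
Ces3b: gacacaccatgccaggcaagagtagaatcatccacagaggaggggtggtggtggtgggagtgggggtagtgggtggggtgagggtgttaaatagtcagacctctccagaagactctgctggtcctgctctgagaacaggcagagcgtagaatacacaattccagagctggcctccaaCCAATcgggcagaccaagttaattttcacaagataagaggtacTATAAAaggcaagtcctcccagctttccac

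Such upstream sequences were matched for 7 of the 10 members and were not matched for Ces1d, Ces1f and Ces3a. TATAAA was found in Ces1g and Ces3b alone among the 7, and in 12.4% of 32851 promoter windows of all genes. CCAAT was found in Ces1b, Ces1c, Ces1g, Ces2a, Ces2c and Ces3b, and is in 33.8% of all windows. No match for TTCNNNGAA, which 7.02% of all windows hold, was found in the members. A match describes letters in this window and not binding.

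The comparison of CCl4 with CCl4 plus JT003 asked what differed after the agonist in the injured liver. Ces3b was called higher, with 47.6 FPKM in CCl4 and 116 FPKM in CCl4 plus JT003, a log2 ratio of 1.22 (95% interval 1.15 to 1.30), or 2.33-fold. The treated level stayed under the 186 FPKM of corn oil. In the diet model Ces3b had 158, 195 and 202 FPKM in SD, HFD and after JT003. The call was lost with an assumed variation of 0.2 in edgeR's exact test (adjusted p = 0.137). It was 1 of 10 members, against 4.42% of all 17393 genes tested, with 1.91% of all genes higher and 2.51% lower. Ces2c had a log2 ratio of -0.64 and Ces1g, with 111 and 89.3 FPKM, of -0.39. Ces1d had 347 and 338 FPKM and a log2 ratio of -0.11. The median of the members was -0.02, beside -0.0036 for all genes. Among the 12 pericentral markers 1 was called higher (Slc1a2, 0.06 and 0.33 FPKM, log2 ratio 2.45), and the median of the list was -0.11. Their sum went from 1659 to 2692 FPKM, with Cyp2e1 at 1103 and 2280 FPKM and Cyp1a2 at 323 and 192 FPKM. Of the stellate cell markers 3 of 10 were called lower (sums 121 and 115 FPKM), of the macrophage markers 2 of 11 higher (201 and 299 FPKM), and of the periportal markers 1 of 11 higher (6022 and 6826 FPKM). The part of these cells in the value of Ces3b was not tested.

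A second source of CCl4 counts was available. The authors' table for the agonist in the CCl4 model holds a pooled CCl4 column whose total is 2.97 times that of the CCl4 library, and it is read here as a pool that includes the library, which the sources do not state. The remainder after taking the library away then stands for the other reads of that column. No gene fell below the library by more than 0.99 counts in the pooled column. With the remainder in place of the library, Ces3b had a log2 ratio of -2.61 between corn oil and CCl4 and of 1.63 between CCl4 and CCl4 plus JT003, and was called in both. Ces1g had 0.95 between corn oil and CCl4, just under the threshold, and Ces1d had 0.25. Ces1e, Ces2a and Ces3a had -1.03, -1.17 and -1.10 and were then called lower, giving 4 of 10 members, against 9.75% of all genes tested. In CCl4 to CCl4 plus JT003 the remainder gave 4.64% of all genes. Between CCl4 and CCl4 plus JT003, Ces1d turned from -0.11 to 0.64 and Ces1g from -0.39 to 0.21.

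**Figure D3:**
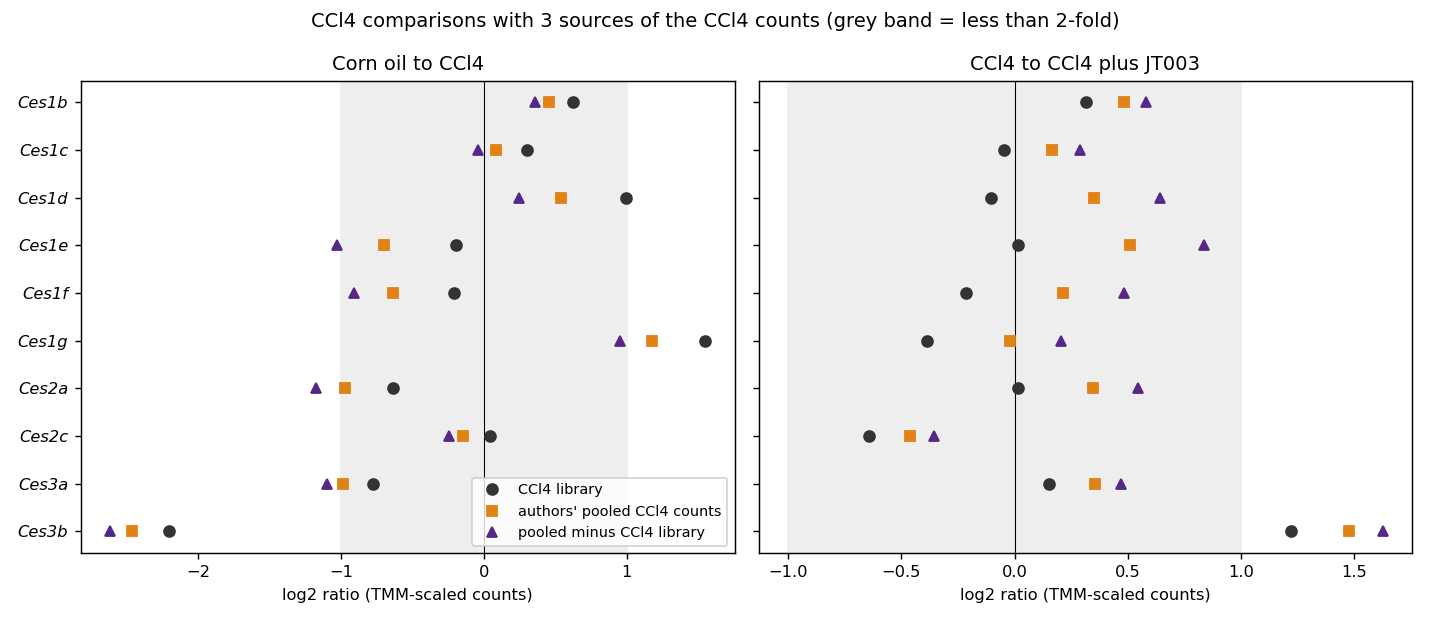
Log2 ratio of each member (x axis) in the 2 comparisons that use the CCl4 counts, taken from the CCl4 library (circles), the authors' pooled column (squares) or that column minus the library (triangles). Ces3b lies beyond the 2-fold band with each source, whereas Ces1d changes side in the right panel.

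Set against the controls of their model, the treated livers gave the following. Between SD and HFD plus JT003, 3 of 10 members were called higher: Ces1d (log2 ratio 2.44, 95% interval 2.39 to 2.49), Ces1g (2.20, 2.10 to 2.32) and Ces2c (1.14, 0.98 to 1.30). Of all 17012 genes tested 5.93% were called, 3.16% higher and 2.76% lower (722 and 362 genes with total reads, against 538 and 470). Ces1b had a ratio of 0.99, just under the threshold. Between corn oil and CCl4 plus JT003, Ces1g was called higher (1.16, 95% interval 1.08 to 1.25). Of all 17338 genes tested 4.95% were called, 3.23% higher and 1.72% lower (1065 and 177 genes with total reads, against 560 and 299). Ces3b had -0.98, and Ces1b had 0.94. These comparisons share libraries with those above.

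The control livers also differed from each other. Between SD and corn oil all 10 members had a ratio above 0, and 2 were called: Ces2a, with 73.6 FPKM in SD and 177 FPKM in corn oil (log2 ratio 1.36, 95% interval 1.30 to 1.43), and Ces1b, with 18.5 and 36.2 FPKM (1.07, 0.94 to 1.20). Of all 17018 genes tested 5.42% were called, 2.18% higher and 3.24% lower (303 and 711 genes with total reads, against 371 and 551). The median of the members was 0.57, beside 0.04 for all genes. Diet, injections, the length of treatment (16 and 6 weeks per the methods) and the experiment differ between these livers and cannot be told apart. Macrophage markers moved too, with 11 of 11 called lower in corn oil and sums of 234 and 62.4 FPKM. Of 6 adipocyte markers 1 was called higher in corn oil, Cfd (0.11 and 9.91 FPKM), with sums of 21.0 and 27.5 FPKM. The part of these cells was not tested.

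The make-up of the family differed among the libraries. Ces1c and Ces3a together made up 75.7% of the summed FPKM of the members in the SD library, 72.7% under HFD and 63.9% with JT003 added, and 68.0%, 66.3% and 66.6% in the corn oil, CCl4 and CCl4 plus JT003 libraries. Ces1d made up 3.999% in SD and 15.2% in HFD plus JT003, where it ranked 3 among the members. Ces3b ranked 3 in corn oil with 7.20% and 9 in CCl4 with 1.67%.

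**Figure D4:**
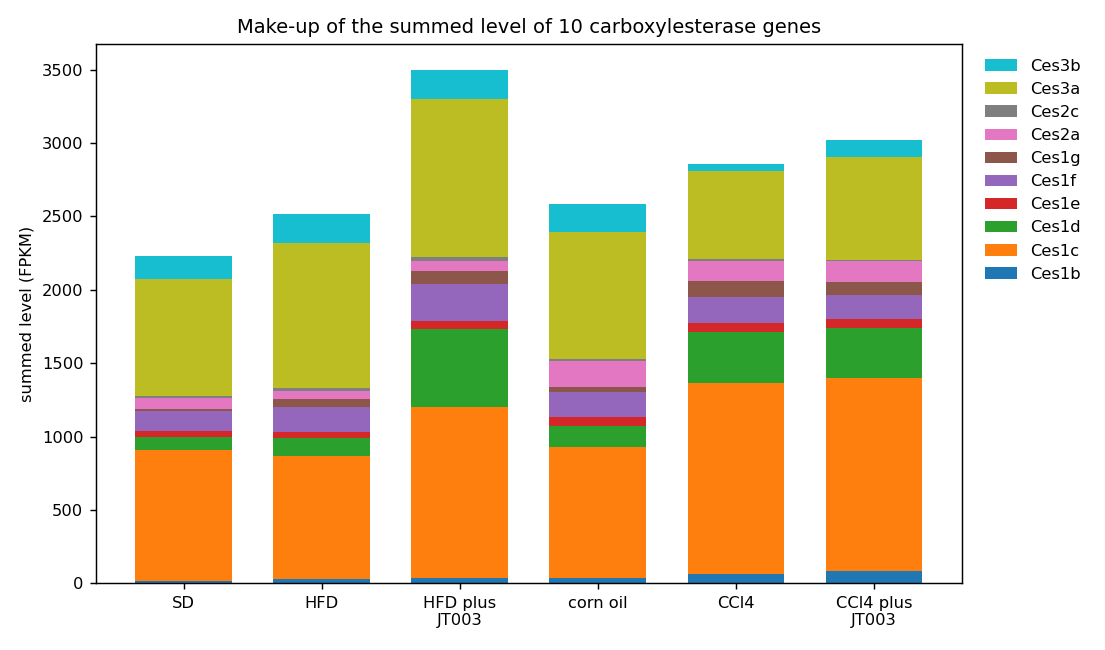
Summed level of the 10 members (y axis, FPKM) in each library (x axis), split by gene; 1 bar is 1 library. The bar of HFD plus JT003 is the tallest at 3500 FPKM, with Ces1d at 532 FPKM. FPKM do not carry the library scaling of the ratios.

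Ces1g, Ces1d and Ces1b had the widest ranges over the libraries, and the genes nearest to each profile were sought among 10269 others with at least 100 counts in a library. The distance was the root mean square difference of centred log2(FPKM + 1) values over the 6 libraries, and Pearson's r is given as a description. Nearest to Ces1g were Tsku (distance 0.19, r 0.98), Gsta3 (0.22, 0.98) and Gamt (0.29, 0.96). Among those nearest to Ces1d were Akr1c19 (0.33, 0.94) and Cry1 (0.39, 0.94). Cry1, which encodes a clock repressor, had 1.85 FPKM in HFD and 6.88 in HFD plus JT003. Nearest to Ces1b were Ifi27l2a (0.22, 0.95), Fdft1 (0.24, 0.95) and Rdh5 (0.24, 0.94).

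Of 10 other carboxylesterase genes 7 were listed. Ces2e was called higher in HFD than SD (38.8 and 98.6 FPKM, log2 ratio 1.23) and in CCl4 than corn oil (56.8 and 172 FPKM, 1.36). Ces2g was called higher in CCl4 than corn oil (8.99 and 24.3 FPKM, 1.19). Ces4a was called higher in HFD than SD (1.78 and 5.42 FPKM, 1.46) and lower in CCl4 than corn oil (2.35 and 0.06 FPKM, -4.74). Between HFD and HFD plus JT003 and between CCl4 and CCl4 plus JT003 none of the 7 was called.

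Other neutral lipid hydrolases are a reference for the members with a role in fat. Of 19 esterases and lipid hydrolases 7 were called lower and none higher between SD and HFD. Pnpla2, the adipose triglyceride lipase, had 107 and 31.0 FPKM (log2 ratio -1.92), and Mgll, monoacylglycerol lipase, had 263 and 92.6 FPKM (-1.63). None of the 19 was called between HFD and HFD plus JT003, where Pnpla2 had a ratio of 0.02. Between corn oil and CCl4, 3 were called higher and none lower: Pnpla3 (2.07), Lpl (1.99) and Abhd2 (1.36). Between CCl4 and CCl4 plus JT003, Abhd2 alone was called, lower (-1.34). Among the partners of luminal esterases, the retrieval receptors Kdelr1, Kdelr2 and Kdelr3 and the β-glucuronidase gene Gusb, whose product is held by the Ces1e protein egasyn, none was called in the 4 main comparisons. Ces1e itself had between 41.8 and 63.3 FPKM.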

How the data were processed

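Per the labels, liver RNA of 6 libraries was sequenced on a BGISEQ-500. The authors' processing notes name HISAT, Bowtie2 and RSEM and the build mm9, without versions. The deposited files give RSEM expected counts (estimated counts, not normalized) and FPKM per gene, both made by the authors. The authors' tables of differences hold fold changes and p-values that were not used, and 7 expression columns of these tables were not used. The pooled CCl4 column of estimated counts deposited in one of them served as an alternative.

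Estimated counts were rounded. Library sizes were scaled by TMM (edgeR 4.0.16) over the 3 libraries of a model, or all 6 for SD against corn oil. Each pair was tested with a two-sided exact binomial test (scipy 1.17.1), adjusted by Benjamini-Hochberg over genes with at least 1 read, with a prior count of 2 in log2 ratios and 95% Clopper-Pearson intervals. In simulated data for SD to HFD (15804 genes) all 100 genes changed by 1.5 on the log2 scale were recovered. For corn oil to CCl4 (16027 genes) 99 of 100 were, and the intervals covered the true ratio in 93% of the 100. The simulated counts were Poisson draws with known library totals and no variation between animals, and changes were set only in genes with about 100 or more expected counts. The simulation thus covers counting error alone and does not bear on differences between animals. The 10 members and the gene lists were chosen with earlier results of these data known. All members were described; in other lists the named genes were taken, not all of them, from defining markers, up to 4 called genes with the largest ratios in a comparison, and other carboxylesterases with at least 100 counts. Tsku, Gsta3 and the like were chosen by profile distance. A gene that this rule also chose is not reported here. Alternatives were total reads, DESeq2 1.42.0 size factors, other filters and prior counts, FPKM, and an exact test of edgeR that assumes a biological variation. Coding sequences are the longest open reading frames of GENCODE vM21.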

Additional observations from a re-analysis of the deposited data

Results flagged for a closer look

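A pair of members had opposite directions in the 2 models, with intervals that exclude 0 in both and a call in one of them. The difference between the models was not tested, since each ratio rests on 1 library per condition. Ces3b had a log2 ratio of 0.18 between SD and HFD and of -2.20 between corn oil and CCl4, a difference of 2.38. Ces1d had a log2 ratio of 2.05 between HFD and HFD plus JT003 and of -0.11 between CCl4 and CCl4 plus JT003, a difference of 2.15. With the pooled column less the CCl4 library the latter ratio of Ces1d was 0.64, so that the directions were no longer opposite.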

How the results depend on the processing

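No paired analysis was possible because each condition has 1 library, and for the same reason no replicate could be left out. Of 810 alternative results for the log2 ratios of members, 695 kept their direction and side of the threshold and 20 lost a call. A call was gained in 70 (54 of them by dropping the ratio threshold), and 25 changed sign. The count minimum, the ratio alone, the dropped ratio threshold and the assumed variations keep the log2 ratio itself and alter only the call. A change of sign was thus not possible in those settings. In the other settings no called ratio changed sign. The ratios that changed sign were 0.39 or less in size. The number of called members was the same with DESeq2 size factors, a minimum of 10 counts, a prior count of 0.5 and the ratio alone. The lowest count of a member was 448, so the minimum and the prior count could hardly alter a member call. The ratio alone could not either, because each member past the ratio threshold had also passed the p threshold.

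Without the ratio threshold 9 members passed in SD to HFD, HFD to HFD plus JT003 and corn oil to CCl4, 8 in CCl4 to CCl4 plus JT003 and 10 in the other comparisons. Over all genes 3967 of 16973, 2422 of 17090, 4492 of 17234 and 4180 of 17393 passed in the 4 named comparisons in turn. The others had 4544 of 17012 (SD to HFD plus JT003), 3548 of 17338 (corn oil to CCl4 plus JT003) and 4888 of 17018 (SD to corn oil). Small ratios pass this test where counts are high, as they are in the members. With the exact test of edgeR at an adjusted p under 0.05, assuming a variation of 0.4 between animals, 0 members were called in each comparison; at an unadjusted p under 0.05 there was 1 in HFD to HFD plus JT003 (Ces1d), 1 in corn oil to CCl4 (Ces3b), 2 in SD to HFD plus JT003 (Ces1d and Ces1g) and 0 in the rest. With 0.2 assumed, 0 members were called in CCl4 to CCl4 plus JT003, corn oil to CCl4 plus JT003 and SD to corn oil, with 1, 4 and 4 at an unadjusted p under 0.05; the exact binomial test called 1, 1 and 2. Between corn oil and CCl4 plus JT003, 3 members were called with total reads and with either FPKM pseudocount, and 2 with TMM over all libraries, against 1. Between SD and corn oil 1 was called with total reads and with either FPKM pseudocount, against 2. These settings also called 3 against 2 in corn oil to CCl4 and 4 against 3 in SD to HFD plus JT003. With the remainder of the pooled counts 4 were called between corn oil and CCl4, against 2, while the calls over all genes were 1703, against 1237.

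With total reads, FPKM plus 1 and FPKM plus 0.1 in turn, Ces1e changed sign in SD to HFD (0.0075, 0.0057 and 0.0058), in corn oil to CCl4 (0.038, 0.041 and 0.042) and in corn oil to CCl4 plus JT003 (0.12, 0.12 and 0.12), Ces1f in corn oil to CCl4 (0.028, 0.032 and 0.032) and Ces1c in CCl4 to CCl4 plus JT003 (0.019, 0.018 and 0.018). With the pooled CCl4 counts and their remainder in turn, Ces2c changed sign in corn oil to CCl4 (-0.14 and -0.25), and Ces1c (0.17 and 0.29), Ces1d (0.35 and 0.64) and Ces1f (0.21 and 0.48) in CCl4 to CCl4 plus JT003. With the remainder alone Ces1c changed sign in corn oil to CCl4 (-0.038) and Ces1g in CCl4 to CCl4 plus JT003 (0.21). The cause was not tested. With an assumed variation of 0.4 and that test the calls over all genes went from 913 to 50 in SD to HFD, 278 to 6 in HFD to HFD plus JT003, 1237 to 161 in corn oil to CCl4 and 768 to 30 in CCl4 to CCl4 plus JT003; without the ratio threshold they were 3967, 2422, 4492 and 4180.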

Other observations

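Other enzymes of the endoplasmic reticulum that handle drugs were measured beside the esterases. Of 21 such genes 4 were called higher and 1 lower between SD and HFD, 2 higher and none lower between HFD and HFD plus JT003, 2 higher and 4 lower between corn oil and CCl4, and 2 higher and 1 lower between CCl4 and CCl4 plus JT003. Cyp2b9 was called higher in HFD than SD, where it had 0 counts (23.1 FPKM in HFD), and in CCl4 than corn oil (0.03 and 2.98 FPKM). Cyp2b10 was called higher in CCl4 than corn oil (0.11 and 11.1 FPKM) and lower in CCl4 plus JT003 (2.95 FPKM, log2 ratio -1.95). Por, the reductase that passes electrons to cytochromes P450, had 222, 87.3 and 203 FPKM in the 3 diet libraries (log2 ratios -1.47 and 1.20). Cyp2a5 had 19.0, 177 and 501 FPKM in the same libraries (3.09 and 1.48), and in the CCl4 model 129 FPKM with vehicle, 31.5 with CCl4 and 130 once JT003 was added (-2.27 and 1.97). Cyp2c50 was called higher in HFD than SD (113 and 274 FPKM, 1.14), and Cyp3a13 in CCl4 plus JT003 than CCl4 (53.8 and 124 FPKM, 1.13). Cyp3a11 was called between the controls, with 215 FPKM in SD and 1600 in corn oil (2.995).

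Of 16 regulators of liver esterase genes, 1 was called higher and none lower between HFD and HFD plus JT003: Nr1i3, the constitutive androstane receptor, with 77.3 and 193 FPKM (log2 ratio 1.31). Its ratio between CCl4 and CCl4 plus JT003 was 0.87, under the threshold. Srebf1, a regulator of fatty acid synthesis, was called higher in HFD than SD (1.502). Between corn oil and CCl4, Nfe2l2, the NRF2 gene of the oxidative stress response, was called higher (1.19) and Onecut1 lower (-1.40), and Onecut1 was called higher in CCl4 plus JT003 than CCl4 (1.44).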
